A study of Mus musculus with 24 samples.

Results

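The Toll-like receptor (TLR) loci were followed in ATAC-seq data of mouse bone marrow-derived macrophages (BMDMs), an assay that tags open DNA with a transposase, so that the read count of a region reports how accessible its chromatin is. Of 184158 consensus peaks, 131 overlapped the gene body of *Tlr1*, *Tlr2*, *Tlr3*, *Tlr4*, *Tlr5*, *Tlr6*, *Tlr7*, *Tlr8*, *Tlr9* or *Tlr13*, or the 20 kb on either side, and each was given to the nearest of these 10 genes. *Tlr4* held 37 peaks, *Tlr7* 17, *Tlr9* 15, *Tlr13* 14, *Tlr8* 13, *Tlr2* 12, *Tlr5* 10, *Tlr1* 6, *Tlr3* 5 and *Tlr6* 2. By position, 10 peaks lay over the transcription start site (TSS) of a TLR gene, 6 over other exons, 41 in introns, 36 upstream and 38 downstream. A peak near a gene is not shown to act on it, and 4 of the 131 also lay over the TSS of a neighbour: *Fam114a1* with *Mir574* in the *Tlr6* window, *Gm45542* at the *Tlr3* start, and *Twf2* and *Alas1* with *4930500F10Rik* at the ends of the *Tlr9* window. Most *Tlr9* peaks lay within the bodies of *Twf2* or *Alas1*, and some *Tlr3* peaks within *Fam149a*.

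The 24 libraries formed 4 groups of 6, which the study describes as animals of one experiment. WT marrow came from C57BL/6J mice. AhR-KO marrow came from mice with the *Ahr* tm1Bra allele, which lack the aryl hydrocarbon receptor (AhR), a ligand-activated transcription factor, in all cells and not in macrophages alone. All cultures were grown with GM-CSF (10 ng/ml) and TGF-β (2 ng/ml) to resemble alveolar macrophages. They were left unstimulated or given LPS, the bacterial lipopolysaccharide that TLR4 senses, on day 6 at 97 EU/ml for 24 h, with a calcium ionophore at 5 µM for 10 min. The labels attach the LPS and ionophore text to every library, so which of these steps the unstimulated cultures shared is not clear from them. Of 13 peaks over *Ahr* (chr12:35497974-35535038), 0 covered exon 2, the part this allele lacks, so the peaks cannot check the genotype.

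Counts in peaks summed to 8.54 to 34.6 M (1 M is 1000000) per library, lowest in WT unstimulated replicate 5. Depth differed by group, with 8.54 to 23.1 M in WT unstimulated and 25.1 to 34.6 M in WT LPS. It was 18.9 to 25.7 M in AhR-KO unstimulated and 22.4 to 28.5 M in AhR-KO LPS. The numbers of libraries in which a peak was called, given below, are not corrected for depth. The share of counts on chromosome Y was 0.0118% and 0.00901% in the WT libraries numbered 6 and 0.0189% to 0.0275% in all others. Of 10 macrophage markers, 9 had a peak over the TSS (among them *Adgre1*, *Cd68*, *Csf1r* and *Itgam*), as had 7 of 25 markers of other cell types and 0 of those of T cells, B cells and mast cells. Some marker levels moved with the groups. *Camp*, the only one of 4 neutrophil-lineage markers with a TSS peak, ran from 10.9 to 18.6 CPM (counts scaled to a normalised library total of 1000000) over the unstimulated libraries and from 20.9 to 32.5 over the LPS libraries. *Flt3* and *Zbtb46*, of 3 dendritic cell markers, summed to 18.2 to 22.9 CPM in AhR-KO LPS and to 25.01 to 34.7 elsewhere. The macrophage markers summed to 170 to 192 CPM in unstimulated WT, 204 to 253 in unstimulated AhR-KO, 153 to 179 in WT LPS and 155 to 207 in AhR-KO LPS. The part of these shifts in the TLR results was not tested. In bulk samples, fewer cells with an open region and a less open region in each cell cannot be told apart.

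TLRs are germline-encoded receptors for conserved microbial molecules and signal through the adaptors MyD88 or TRIF to NF-κB and interferon regulatory factors. TLR1, TLR2, TLR4, TLR5 and TLR6 act at the cell surface, where TLR4 with MD-2 senses LPS, TLR2 pairs with TLR1 or TLR6 to sense bacterial lipoproteins, and TLR5 senses flagellin. TLR3, TLR7, TLR8, TLR9 and TLR13 act in endosomes, where TLR3 senses double-stranded RNA, TLR7 and TLR8 single-stranded RNA, TLR9 CpG DNA and mouse TLR13 bacterial ribosomal RNA.

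Regions with differences between groups are shown first by sequence, from mm10 on the plus strand, as the central 300 bases of a peak or the whole of a shorter one. Capitals mark matches to any of 5 short motifs searched on both strands: the AhR response element core GCGTG, an NF-κB motif GGGNNNNNCC, an AP-1 motif TGANTCA, an interferon-stimulated response element (ISRE) GAAANNGAAA and the PU.1 core GAGGAA. The *Tlr3* upstream region (chr8:45415399-45415698) was lower with LPS and lower in AhR-KO. The regions downstream of *Tlr2* (chr3:83821987-83822286 and chr3:83818327-83818626) moved in opposite directions with LPS. The *Tlr5* (chr1:182937665-182937964) and *Tlr9* (chr9:106220170-106220335) upstream regions were lower in AhR-KO in both conditions, but were called as peaks in WT libraries alone. The *Tlr13* intronic region (chrX:106156003-106156255) gained more with LPS in AhR-KO than in WT.
Tlr3 upstream: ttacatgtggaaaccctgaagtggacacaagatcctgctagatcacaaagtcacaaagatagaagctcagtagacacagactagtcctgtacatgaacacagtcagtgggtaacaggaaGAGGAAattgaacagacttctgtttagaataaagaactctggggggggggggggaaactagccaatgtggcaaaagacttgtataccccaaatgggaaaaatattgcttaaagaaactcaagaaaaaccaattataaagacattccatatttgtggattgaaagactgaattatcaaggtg
Tlr2 downstream, nearer: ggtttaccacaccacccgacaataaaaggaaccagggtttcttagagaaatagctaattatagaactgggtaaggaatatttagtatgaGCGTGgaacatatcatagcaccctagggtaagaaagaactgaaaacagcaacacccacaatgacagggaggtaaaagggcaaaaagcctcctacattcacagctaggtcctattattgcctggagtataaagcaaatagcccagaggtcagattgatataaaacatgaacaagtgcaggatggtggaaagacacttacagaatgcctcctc
Tlr2 downstream, farther: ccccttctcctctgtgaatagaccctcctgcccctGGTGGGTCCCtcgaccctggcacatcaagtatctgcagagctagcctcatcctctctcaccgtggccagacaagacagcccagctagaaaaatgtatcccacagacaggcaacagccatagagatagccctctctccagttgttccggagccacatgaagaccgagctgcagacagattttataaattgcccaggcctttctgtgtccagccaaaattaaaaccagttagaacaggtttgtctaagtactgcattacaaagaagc
Tlr5 upstream: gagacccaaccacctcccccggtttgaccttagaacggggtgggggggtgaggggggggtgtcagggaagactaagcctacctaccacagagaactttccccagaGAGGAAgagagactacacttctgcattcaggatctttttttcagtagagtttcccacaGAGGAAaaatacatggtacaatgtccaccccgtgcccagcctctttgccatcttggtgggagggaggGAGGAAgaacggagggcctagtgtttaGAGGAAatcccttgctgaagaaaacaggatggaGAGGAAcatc
Tlr9 upstream: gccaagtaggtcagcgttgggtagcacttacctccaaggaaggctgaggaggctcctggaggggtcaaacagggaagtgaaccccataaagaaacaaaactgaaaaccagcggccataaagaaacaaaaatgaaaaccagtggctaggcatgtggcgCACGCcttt
Tlr13 intron: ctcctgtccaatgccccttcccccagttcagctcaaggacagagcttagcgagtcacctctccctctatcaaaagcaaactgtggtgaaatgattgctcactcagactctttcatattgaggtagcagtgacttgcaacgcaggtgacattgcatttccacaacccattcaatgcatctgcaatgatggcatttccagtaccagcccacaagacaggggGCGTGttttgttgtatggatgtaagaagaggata
The *Tlr3* region held 1 match, to the PU.1 core, and the *Tlr5* region 5 matches to that core. The AhR core matched once in each of the nearer *Tlr2*, the *Tlr9* and the *Tlr13* regions, and the farther *Tlr2* region held 1 NF-κB match. A match is a run of letters and not a shown binding site.

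RefSeq start regions (GRCm38.p6, 250 bases before to 50 after the start) were matched for 8 of the 10 genes. The exon-free part before the start, on the gene's own strand, is shown for 4: *Tlr2* (chr3:83841768-83841858, minus strand) and *Tlr1* (chr5:64933564-64933808, minus strand), whose TSS peaks were the most and least accessible per kb, *Tlr5* (chr1:182954538-182954787, plus strand), whose TSS peak fell with LPS, and *Tlr9* (chr9:106222348-106222597, plus strand), with the highest LPS fold change among TSS peaks.
Tlr2 start region: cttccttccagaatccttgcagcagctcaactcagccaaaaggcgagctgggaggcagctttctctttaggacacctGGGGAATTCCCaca
Tlr1 start region: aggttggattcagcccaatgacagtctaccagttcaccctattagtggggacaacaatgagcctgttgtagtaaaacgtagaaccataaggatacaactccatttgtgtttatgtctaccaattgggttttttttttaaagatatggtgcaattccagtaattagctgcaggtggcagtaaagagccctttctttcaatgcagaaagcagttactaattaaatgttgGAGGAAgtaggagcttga
Tlr5 start region: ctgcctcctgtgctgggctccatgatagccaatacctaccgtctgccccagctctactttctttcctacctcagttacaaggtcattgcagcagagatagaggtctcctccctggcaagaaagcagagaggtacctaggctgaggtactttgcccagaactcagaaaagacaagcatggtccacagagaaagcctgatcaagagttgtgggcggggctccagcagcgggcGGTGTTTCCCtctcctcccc
Tlr9 start region: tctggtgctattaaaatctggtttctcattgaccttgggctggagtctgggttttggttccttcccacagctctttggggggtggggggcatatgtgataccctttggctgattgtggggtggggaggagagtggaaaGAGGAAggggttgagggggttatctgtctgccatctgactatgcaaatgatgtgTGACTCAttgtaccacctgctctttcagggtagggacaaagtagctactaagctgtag
*Tlr2* held 2 overlapping NF-κB matches, *Tlr5* 1 NF-κB match, *Tlr1* 1 PU.1 match, and *Tlr9* 1 AP-1 and 1 PU.1 match. Over whole start regions, the AhR core matched in 0 of the 8 genes and in 32.4% of 32851 RefSeq start regions, the NF-κB motif in 4 and 50.8%, the AP-1 motif in 1 and 7.81%, the ISRE in 0 and 3.44%, and the PU.1 core in 4 and 28.3%. Over the 300-base centres of the 131 TLR peaks, the AhR core matched in 14 (10.7%, against 16.02% of 184060 peak centres), the NF-κB motif in 35 (26.7% against 33.8%), the AP-1 motif in 23 (17.6% against 17.9%), the ISRE in 5 (3.82% against 4.59%) and the PU.1 core in 57 (43.5% against 37.4%). These shares are descriptions without a test.

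Per kb of peak, the *Tlr2* TSS was the most accessible of the 10 in all 4 groups, followed by *Tlr4* and *Tlr6*, and *Tlr1* had the lowest mean in all 4. The order of the first genes rests on peak width, 919 bp at *Tlr2*, 2497 bp at *Tlr4* and 2195 bp at *Tlr6*. Without division by width, mean CPM by raw library totals over all libraries was 76.9 at *Tlr4*, 48.3 at *Tlr6* and 41.4 at *Tlr2*. In WT unstimulated cells, the level was 38.5 ± 2.77 CPM per kb (mean ± SD, n = 6) at *Tlr2*, 32.4 ± 1.15 at *Tlr4*, 18.9 ± 1.47 at *Tlr6*, 15.9 ± 1.01 at *Tlr3* and 9.56 ± 0.996 at *Tlr7*. It was 8.77 ± 1.4 at *Tlr9*, 7.77 ± 0.454 at *Tlr5*, 7.12 ± 0.800 at *Tlr8*, 6.09 ± 0.691 at *Tlr13* and 2.95 ± 0.826 at *Tlr1*. In that order *Tlr6* overlapped *Tlr3*, and each neighbour from *Tlr7* to *Tlr13* overlapped the next, while the others stood apart. In WT LPS, *Tlr9* (11.1 ± 1.99 CPM per kb) came before *Tlr3* (10.9 ± 0.535), with overlap, and *Tlr5* (4.03 ± 0.225) overlapped *Tlr1* (3.51 ± 0.846). The *Tlr1* TSS peak was called in 4, 3, 6 and 5 of the 6 libraries of the WT and AhR-KO unstimulated groups and the WT and AhR-KO LPS groups, and the other 9 in all 24.

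**Figure D1:**
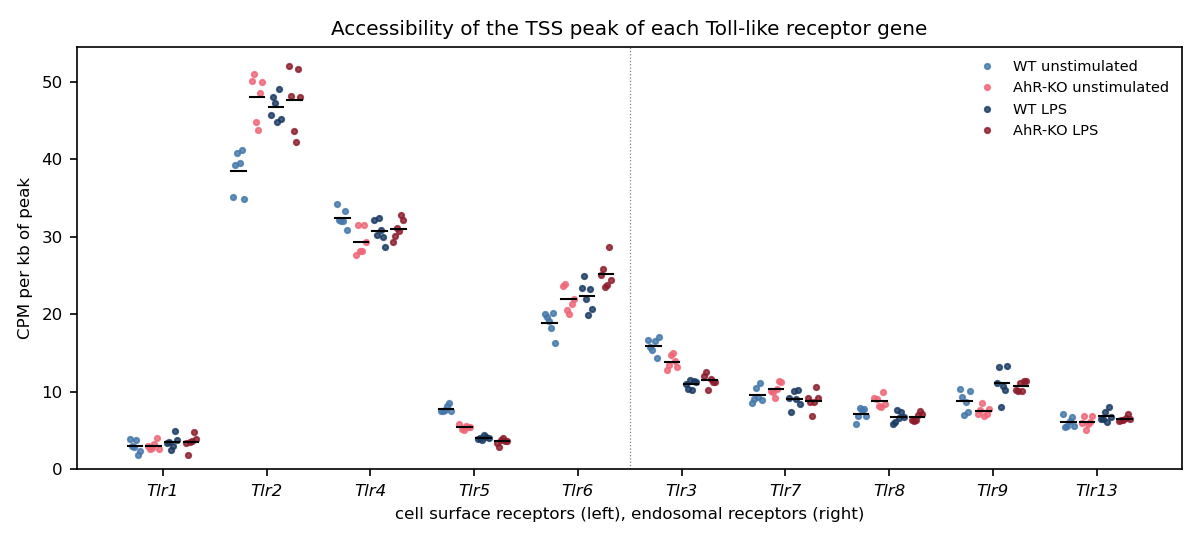
Accessibility of the TSS peak of each TLR gene in CPM per kb of peak (y axis), by gene (x axis) and group (colour). Points are the 6 libraries of a group. Per kb, *Tlr2* is the most accessible and *Tlr1* the least, and *Tlr5* falls from 7.77 ± 0.454 (mean ± SD) in WT unstimulated to 4.03 ± 0.225 in WT LPS.

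Peaks counted as differentially accessible regions (DARs) had a Benjamini-Hochberg adjusted p of at most 0.05 in edgeR's quasi-likelihood test, two-sided and adjusted over 174193 tested peaks, together with a 1.5-fold change or more. Adjusted p-values of peaks below are from this test, and fold changes are on the log2 scale. Of the 131 TLR peaks, 124 had enough counts to be tested, and the other 7 were each called in 1 library. At the TSS, 0 of 10 were DARs for genotype in either condition (background over 13463 protein-coding TSS peaks, 6.22% unstimulated and 6.98% with LPS), 1 for LPS in WT (10.4%), 1 for LPS in AhR-KO (15.9%) and 0 for the interaction (3.6%). At an unadjusted p under 0.05 there were 7, 2 and 5 of 10 for genotype without LPS, genotype with LPS and the interaction in edgeR, and DESeq2 also called 0 in each. At an adjusted p of at most 0.05 in edgeR there were 6, 1 and 3, all short of the fold. The shares of all protein-coding TSS peaks passing by p alone were not computed, so these counts cannot be set against a background.

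The *Tlr5* TSS peak (chr1:182953501-182955405) was the DAR in both genotypes. Its lowest, median and highest levels were 14.2, 14.4 and 16.2 CPM in unstimulated WT, 9.61, 10.3 and 11.2 in unstimulated AhR-KO, 7.21, 7.54 and 8.44 in WT LPS and 5.49, 7.01 and 7.56 in AhR-KO LPS. All WT unstimulated libraries were above the AhR-KO unstimulated ones, and these above all LPS libraries. The LPS effect was -0.94 (SE 0.08, adjusted p = 3.54e-13) in WT and -0.60 (SE 0.08, adjusted p = 2.02e-08) in AhR-KO. The latter was under the fold without AhR-KO unstimulated replicate 1 (-0.58) or AhR-KO LPS replicate 2 (-0.55). The genotype effect was -0.52 (SE 0.08, adjusted p = 1.01e-06) without LPS, short of the fold of a DAR, and -0.18 (SE 0.08, adjusted p = 0.0614) with LPS. The highest *Tlr5* peak in CPM was not the TSS but a region 9.48 kb upstream (chr1:182944624-182945999), with medians of 15.9, 13, 13 and 14 CPM in the same order of groups.

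Of the other TSS peaks, those of *Tlr2* and *Tlr8* were higher in AhR-KO without LPS, by less than a DAR requires. At *Tlr2* (chr3:83841025-83841943) the levels were 32, 36.2 and 37.8 CPM in unstimulated WT, 40.2, 45.3 and 46.8 in unstimulated AhR-KO, 41.1, 42.7 and 45.1 in WT LPS and 38.8, 44.1 and 47.7 in AhR-KO LPS. WT unstimulated libraries lay below all others, and the genotype effect was 0.32 (SE 0.06, adjusted p = 2.74e-05) without LPS and 0.03 (SE 0.06, adjusted p = 0.711) with it. At *Tlr8* (chrX:167262227-167264476), 13, 16.3 and 17.7 CPM in WT and 18.1, 19.7 and 22.3 in AhR-KO did not overlap without LPS (0.31, SE 0.08, adjusted p = 0.00193), and medians with LPS were 15 and 14.9. The *Tlr3* TSS peak (chr8:45409056-45411169) had LPS effects of -0.55 (SE 0.06, adjusted p = 2.32e-10) in WT and -0.27 (SE 0.06, adjusted p = 9.28e-05) in AhR-KO. At *Tlr9* (chr9:106221703-106223493) the LPS effects were 0.33 (SE 0.10, adjusted p = 0.00439) in WT and 0.51 (SE 0.10, adjusted p = 3.06e-05) in AhR-KO. *Tlr4* (chr4:66827246-66829742), whose receptor senses the stimulus, held the highest of its peaks at the TSS, with medians of 80.2, 71.7, 76.2 and 77.3 CPM in overlapping groups. Its LPS effect was -0.08 (SE 0.05, adjusted p = 0.144) in WT and 0.08 (SE 0.05, adjusted p = 0.119) in AhR-KO. LPS effects at *Tlr6* (chr5:64959686-64961880) were 0.25 and 0.20, and at *Tlr1* (chr5:64933361-64933748), *Tlr7* (chrX:167328423-167330887) and *Tlr13* (chrX:106142743-106144104) genotype and LPS effects ran from -0.23 to 0.20.

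Without LPS, 5 TLR peaks were lower and 10 higher in AhR-KO than in WT (4.03% and 8.06% of 124, beside a background of 12.6% and 9.95% of all tested peaks). The median change was 0.12 over the TLR peaks and -0.02 over all peaks. The peak 2.35 kb upstream of *Tlr9* had 0.814, 1.64 and 2.08 CPM in WT and 0.127, 0.222 and 0.395 in AhR-KO. These libraries did not overlap (-2.70, SE 0.30, adjusted p = 4.32e-09), and this low-count region of 166 bp was called in the peak list of 1 library only, a WT unstimulated one. The peak 17 kb upstream of *Tlr5* (chr1:182937617-182938011) had 0.706, 1.03 and 1.78 CPM in WT against 0.391, 0.456 and 0.593 in AhR-KO, also apart (-1.27, SE 0.28, adjusted p = 4.21e-04). It was called in 3 WT unstimulated and 4 WT LPS libraries, and in 0 AhR-KO libraries of either condition. Downstream of *Tlr3*, within *Fam149a* (chr8:45381203-45381643), 0.662, 1.05 and 1.4 CPM in WT against 0.381, 0.510 and 0.920 in AhR-KO overlapped (-0.83, SE 0.24, adjusted p = 0.00479). That region was called in 2 WT unstimulated libraries and in no other. The lower regions named here thus entered the peak set through WT libraries alone. Their lower level in AhR-KO is therefore not independent of how they were selected.

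The named gains without LPS were at regions with more counts. The *Tlr2* downstream region 19.6 kb from the TSS (chr3:83821714-83822558) had 11.4, 12.9 and 16.7 CPM in WT and 20.3, 22 and 25 in AhR-KO (0.75, SE 0.09, adjusted p = 3.98e-08). Downstream of *Tlr4*, 116 kb from its TSS (chr4:66943045-66944357), the levels were 5.7, 6.5 and 7.44 CPM in WT against 8.93, 10.2 and 12.3 in AhR-KO (0.69, SE 0.10, adjusted p = 1.08e-06). In the *Tlr9* window, within *Alas1*, which encodes an enzyme of haem synthesis (chr9:106236185-106237336), they were 1.77, 2.43 and 2.79 CPM in WT against 3.6, 4.28 and 6.45 in AhR-KO (0.98, SE 0.15, adjusted p = 1.84e-06). All AhR-KO libraries were above all WT libraries at each of these regions. By gene, the higher DARs were 3 at *Tlr4*, 2 at *Tlr8* and 1 each at *Tlr1*, *Tlr2*, *Tlr7*, *Tlr9* and *Tlr13*, and the lower ones 2 at *Tlr3* and 1 each at *Tlr2*, *Tlr5* and *Tlr9*.

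With LPS, 7 TLR peaks were lower and 13 higher in AhR-KO (5.65% and 10.5%, beside 13.1% and 13.4% of all tested peaks), with a median change of 0.12, against 0.02 over all. The *Tlr3* peak 4.47 kb upstream of the TSS (chr8:45414800-45416297) had 28.4, 37.2 and 42.7 CPM in unstimulated WT, 24, 25.2 and 28.2 in unstimulated AhR-KO, 9.93, 17.3 and 20.3 in WT LPS and 4.3, 4.68 and 6.78 in AhR-KO LPS. Each group lay wholly below the one named before it. The genotype effect was -0.51 (SE 0.15, adjusted p = 0.00837) without LPS and -1.62 (SE 0.17, adjusted p = 4.69e-08) with it. The WT libraries were spread, and replicates 3, 4 and 5 were the lowest in both WT groups, at 31.2, 35.3 and 28.4 CPM unstimulated and 9.93, 14.6 and 11.3 with LPS. The same numbers were lowest in both WT groups at the *Tlr9* upstream peak.

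**Figure D2:**
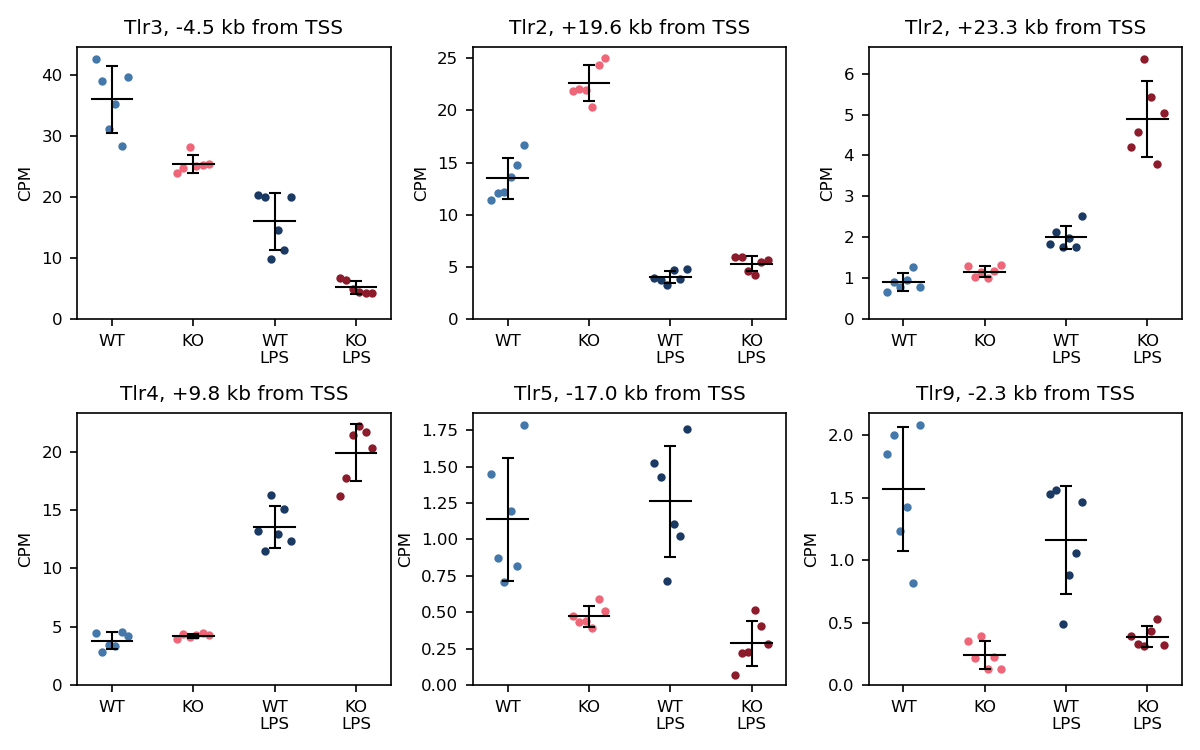
Levels in CPM of 6 TLR peaks outside the start sites, by group, with each panel on its own linear scale from 0. Points are libraries and bars are mean ± SD of 6. The *Tlr3* upstream peak steps down from 36.1 ± 5.49 in WT unstimulated to 5.18 ± 1.1 CPM in AhR-KO LPS.

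The other named peaks that were lower in AhR-KO with LPS were at *Tlr5* and *Tlr8*. By gene, the 7 were 2 at *Tlr3*, 2 at *Tlr5* and 1 each at *Tlr1*, *Tlr8* and *Tlr9*. At the *Tlr5* peak 17 kb upstream, WT LPS had 0.718, 1.27 and 1.76 CPM and AhR-KO LPS 0.0717, 0.255 and 0.515, apart from each other (-2.13, SE 0.28, adjusted p = 1.19e-07). Downstream of *Tlr8*, 37.2 kb from its TSS (chrX:167226661-167227623), 8.5, 9.04 and 10.3 CPM in WT against 3.52, 5.58 and 6.68 in AhR-KO were apart as well (-0.73, SE 0.10, adjusted p = 2.39e-07). At the *Tlr9* upstream peak, 0.488, 1.26 and 1.56 CPM in WT against 0.316, 0.361 and 0.529 in AhR-KO overlapped (-1.57, SE 0.27, adjusted p = 9.41e-06). The *Tlr5* and *Tlr9* upstream peaks were, as said above, called in WT libraries alone.

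*Tlr4*, the locus with the most peaks, held 6 of the 13 peaks that were higher in AhR-KO with LPS and 0 of the 7 lower ones. The 6 are 17.6% of its 34 tested peaks, beside 13.4% of all tested peaks. The peak 3.92 kb upstream of *Tlr4* (chr4:66823557-66823765) had 1.89, 2.52 and 2.59 CPM in WT and 3.58, 4.61 and 5.62 in AhR-KO (0.97, SE 0.13, adjusted p = 1.36e-07). This peak was called in 1 AhR-KO LPS library and in no other, so it entered the peak set through the group where it was high. The peak 107 kb from the TSS, downstream of the gene (chr4:66933705-66934968), had 2.96, 3.31 and 4.11 CPM in WT against 5.06, 6.82 and 8.49 in AhR-KO (1.01, SE 0.13, adjusted p = 9.55e-08). At *Tlr2*, 23.3 kb from the TSS and downstream (chr3:83817919-83819034), the levels were 1.75, 1.91 and 2.51 CPM in WT against 3.79, 4.8 and 6.37 in AhR-KO (1.29, SE 0.13, adjusted p = 4.58e-10). That *Tlr2* peak was called in 3 WT LPS and 6 AhR-KO LPS libraries and in 0 unstimulated ones. Its higher level in these groups is therefore not independent of how it was selected. At each of these regions all AhR-KO LPS libraries were above all WT LPS libraries. The remaining higher DARs were 3 at *Tlr13* and 1 each at *Tlr7*, *Tlr8* and *Tlr9*. DARs of the same direction without and with LPS numbered 5, which is 33.3% of the 15 and 25% of the 20, beside 53.2% and 45.5% over all tested peaks, and 0 were opposite.

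With LPS, in WT, 23 TLR peaks were lower and 25 higher (18.5% and 20.2%, beside 21.6% and 25.4% of all tested peaks), and in AhR-KO 24 were lower and 32 higher (19.4% and 25.8%, beside 21.5% and 27.3%). Median changes were -0.06 and 0.00, against -0.01 and 0.05 over all peaks. DARs of the same direction in both genotypes numbered 42, which is 87.5% of those in WT and 75.0% of those in AhR-KO, beside 77.8% and 74.9% over all tested peaks. Of the 124 peaks, 53 (42.7%) were DARs in none of the 5 comparisons, beside 32.3% of all tested peaks. These shares are descriptions without a test. At cell surface receptors, 9 of 64 peaks were lower and 16 higher in WT (14.1% and 25%), and 7 and 20 in AhR-KO (10.9% and 31.25%). *Tlr4* alone held 34 of the 64, with 3 lower and 10 higher in WT and 1 and 15 in AhR-KO. Lower and higher DARs in WT were 1 and 3 at *Tlr1*, 4 and 2 at *Tlr2*, 1 and 1 at *Tlr5* and 0 and 0 at *Tlr6*. In AhR-KO they were 1 and 2, 3 and 2, 2 and 1, and 0 and 0. At endosomal receptors, 14 of 60 were lower and 9 higher in WT, with 17 lower and 12 higher in AhR-KO. The difference between these classes was not tested, since peaks of a locus are not replicates.

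*Tlr4* had 10 higher and 3 lower DARs with LPS in WT, of 34 tested peaks (29.4% and 8.82%, beside 25.4% and 21.6% of all tested peaks). In AhR-KO 15 were higher and 1 lower (44.1% and 2.94%, beside 27.3% and 21.5%). These shares were not tested. Its intronic peak 9.85 kb from the TSS (chr4:66836519-66838340) had 2.79, 3.8 and 4.54 CPM in unstimulated WT, 3.97, 4.29 and 4.42 in unstimulated AhR-KO, 11.5, 13.1 and 16.3 in WT LPS and 16.2, 20.9 and 22.2 in AhR-KO LPS. All LPS libraries were above all unstimulated ones, with LPS effects of 1.87 (SE 0.11, adjusted p = 4.30e-17) in WT and 2.23 (SE 0.10, adjusted p = 2.80e-20) in AhR-KO. The intronic peak at 67.2 kb (chr4:66894550-66895009) had 2.53, 3.9 and 4.27 CPM in unstimulated WT, 2.49, 2.77 and 3.74 in unstimulated AhR-KO, 12, 13.2 and 14.3 in WT LPS and 12.8, 16 and 16.9 in AhR-KO LPS, again with the conditions apart. Its LPS effects were 1.89 (SE 0.11, adjusted p = 8.41e-17) in WT and 2.39 (SE 0.11, adjusted p = 4.52e-20) in AhR-KO. The peak at 64.2 kb (chr4:66891295-66892225) was open already without LPS, with medians of 25.4 and 30.8 CPM, and had 44.2 and 50.5 with LPS (0.78, SE 0.06, adjusted p = 4.76e-13 in WT, and 0.73, SE 0.06, adjusted p = 1.06e-12 in AhR-KO).

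**Figure D3:**
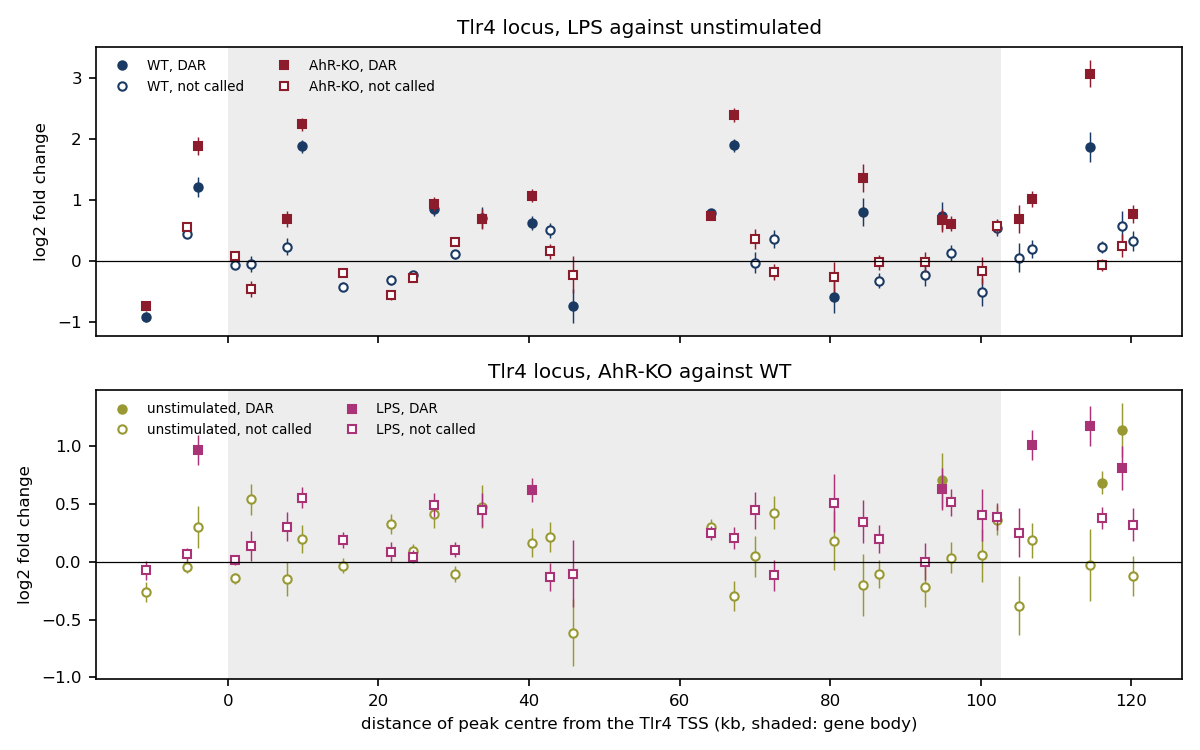
Log2 fold changes of the 34 tested peaks of the *Tlr4* window (y axis) by distance of the peak centre from the TSS in kb (x axis), for LPS and for genotype. The intronic peaks at 9.85 and 67.2 kb have LPS changes of 1.87 and 1.89 in WT, while the TSS peak is at -0.08.

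Downstream of *Tlr2*, LPS lowered and raised neighbouring regions. At 19.6 kb the levels fell to 3.3, 3.9 and 4.76 CPM in WT (-1.73, SE 0.10, adjusted p = 6.90e-17) and to 4.24, 5.59 and 5.97 in AhR-KO (-2.08, SE 0.10, adjusted p = 5.08e-20), from the unstimulated levels given above. The peak at 17.7 kb (chr3:83823736-83824369) fell from medians of 4.45 and 5.53 to 1.55 and 2.25 CPM (-1.53, SE 0.12, adjusted p = 9.41e-14 in WT, and -1.28, SE 0.11, adjusted p = 1.57e-12 in AhR-KO). The peak at 23.3 kb, called in LPS libraries alone as said above, rose from 0.660, 0.855 and 1.28 CPM in WT (1.18, SE 0.17, adjusted p = 1.22e-07) and 0.999, 1.16 and 1.31 in AhR-KO (2.06, SE 0.14, adjusted p = 2.88e-15). At all of these regions the LPS and unstimulated libraries of a genotype did not overlap. The highest *Tlr2* peak in CPM, 3.43 kb upstream (chr3:83844709-83845685), had medians of 38.4, 49.6, 43.3 and 50.6 CPM in unstimulated WT and AhR-KO and in LPS-treated WT and AhR-KO. There AhR-KO was above WT in all libraries of both conditions, with effects of 0.38 and 0.24 that were short of a DAR.

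Among the endosomal receptors, *Tlr8* had 4 lower and 0 higher DARs of 11 with LPS in WT (36.4% and 0%, beside 21.6% and 25.4% of all tested peaks). In AhR-KO it had 6 and 1 (54.5% and 9.09%, beside 21.5% and 27.3%). Its highest peak in CPM, 34.7 kb from the TSS and downstream of the gene (chrX:167229241-167230088), fell from 38, 41.4 and 45.3 to 17.5, 21.3 and 24.9 CPM in WT (-0.95, SE 0.07, adjusted p = 1.35e-13). In AhR-KO it fell from 38.9, 43.8 and 47.3 to 16.5, 20.01 and 22 CPM (-1.16, SE 0.07, adjusted p = 3.63e-16), and in neither genotype did the conditions overlap. The *Tlr3* upstream peak had LPS effects of -1.18 (SE 0.15, adjusted p = 3.02e-07) in WT and -2.29 (SE 0.17, adjusted p = 1.62e-11) in AhR-KO. *Tlr7* had 5 lower and 3 higher DARs of 16 in WT (31.25% and 18.75%), with 5 and 4 in AhR-KO (31.25% and 25%), beside the same background. The highest *Tlr9* peak in CPM, 8.68 kb downstream of the TSS (chr9:106230018-106232533), rose from a median of 25.5 to 40.7 CPM in WT, without overlap (0.67, SE 0.11, adjusted p = 7.48e-06), and from 31.5 to 52 in AhR-KO, with overlap (0.66, SE 0.11, adjusted p = 6.16e-06). Without AhR-KO LPS replicate 1 the latter was 0.57, under the fold. The highest *Tlr13* peak, 7.48 kb upstream (chrX:106134826-106136618), had LPS effects of -0.21 and -0.37, short of a DAR.

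At *Tlr1*, the highest peak in CPM, 10.4 kb from the TSS and downstream (chr5:64922821-64923576), fell from medians of 7.68 and 8.71 to 4.13 and 3.43 CPM (-0.93, SE 0.10, adjusted p = 8.92e-10 in WT, and -1.34, SE 0.10, adjusted p = 7.75e-14 in AhR-KO). Chosen after its values were seen, the *Tlr1* peak 24.3 kb downstream of the TSS (chr5:64908702-64909821) had the highest LPS fold change of the TLR peaks in WT. Its levels were 0.265, 0.524 and 0.697 CPM in unstimulated WT, 0.274, 0.332 and 0.433 in unstimulated AhR-KO, 2.5, 4.1 and 7.33 in WT LPS and 1.79, 2.83 and 4.06 in AhR-KO LPS. All LPS libraries were above all unstimulated ones (3.16, SE 0.27, adjusted p = 1.04e-11 in WT, and 3.01, SE 0.29, adjusted p = 1.05e-10 in AhR-KO). This peak was called in 6 WT LPS and 5 AhR-KO LPS libraries and in 0 unstimulated ones. It thus entered the peak set through the groups where it was high, and its gain is not independent of how it was selected.

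**Figure D4:**
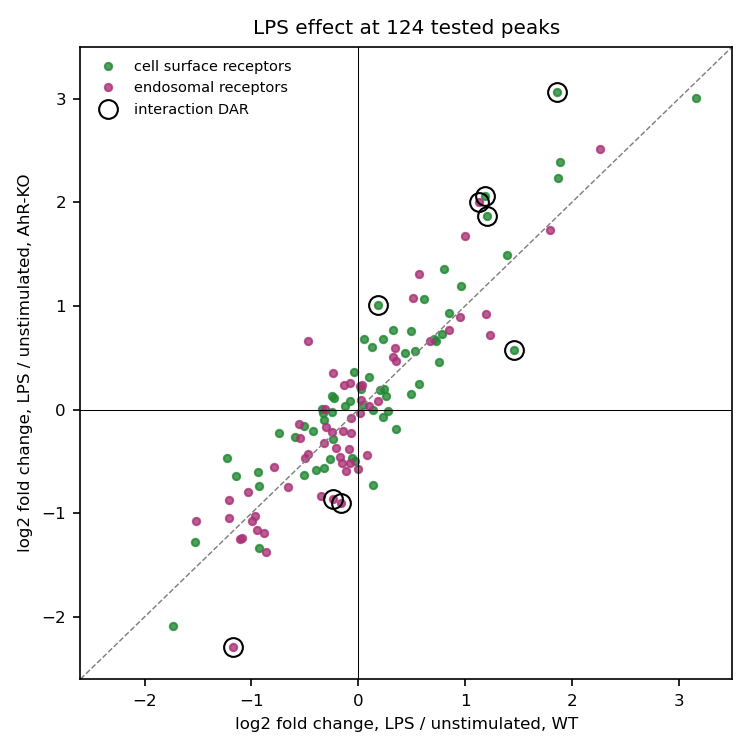
Log2 fold change with LPS in WT (x axis) and in AhR-KO (y axis), with 1 point for each of the 124 tested TLR peaks. The *Tlr3* upstream peak is at -1.18 and -2.29, and the *Tlr1* downstream peak at 3.16 and 3.01.

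The interaction asked whether the LPS effect differed by genotype. It was a DAR at 9 TLR peaks, 4 with a lower and 5 with a higher LPS effect in AhR-KO (3.23% and 4.03%, beside 4.58% and 5.83% of all tested peaks), with a median of 0.04 over the TLR peaks and over all. At the *Tlr3* upstream peak it was -1.11 (SE 0.23, adjusted p = 0.00179). The *Tlr8* peak 12.7 kb upstream (chrX:167276480-167277520) went from 10.004, 11.8 and 12.2 to 8.83, 9.63 and 11.2 CPM with LPS in WT, with overlap, and from 11.7, 13.9 and 15.3 to 6.05, 7.54 and 8.92 in AhR-KO, without, and the interaction was -0.62 (SE 0.13, adjusted p = 9.72e-04). It was -0.58, under the fold, without replicate 3 of either LPS group. An intronic *Tlr13* peak (chrX:106145033-106145456) had medians of 2.21 and 2.01 CPM in WT and 3.001 and 1.58 in AhR-KO, unstimulated and with LPS (-0.74, SE 0.24, adjusted p = 0.0317). That call was lost without any one of 6 libraries (WT unstimulated replicates 4 and 6, AhR-KO unstimulated replicates 2 and 5, WT LPS replicate 6 and AhR-KO LPS replicate 4), with adjusted p from 0.0501 to 0.0694, and without both WT libraries numbered 6 (-0.58, adjusted p = 0.112).

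The named higher interactions were LPS gains that were larger in AhR-KO. The intronic *Tlr13* peak 12.9 kb from the TSS (chrX:106156003-106156255) had 0.594, 0.987 and 1.4 CPM in unstimulated WT, 0.615, 0.795 and 1.14 in unstimulated AhR-KO, 1.77, 2.04 and 2.36 in WT LPS and 3.02, 3.37 and 3.78 in AhR-KO LPS. The AhR-KO LPS libraries were above all others, and the interaction was 0.88 (SE 0.24, adjusted p = 0.0116). At the *Tlr2* peak at 23.3 kb, called in LPS libraries alone, it was 0.88 (SE 0.23, adjusted p = 0.00736). At the *Tlr4* peak at 107 kb it was 0.82 (SE 0.20, adjusted p = 0.00465), from LPS effects of 0.19 (SE 0.15, adjusted p = 0.271) in WT and 1.01 (SE 0.14, adjusted p = 3.89e-08) in AhR-KO. The other interaction DARs, given after their values were seen, were at *Tlr4* 3.92 kb upstream (0.66) and 115 kb downstream of the TSS (1.203), and 1 over an untranslated exon of *Tlr1* (-0.89, SE 0.31, adjusted p = 0.0460). The *Tlr4* peak at 115 kb was called in 4 WT LPS and 6 AhR-KO LPS libraries and in 0 unstimulated ones. The call 3.92 kb upstream of *Tlr4* was lost in 13 of the 24 fits that left out 1 library, with adjusted p up to 0.0859, with RLE size factors, with 0.0567, and in DESeq2, with 0.0756.

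Summed over all peaks of a gene, TLR changes were smaller. The same edgeR model on these sums, adjusted over 19283 genes with the same thresholds, called 0 TLR genes for genotype without LPS (5.4% of all genes), 0 with LPS (6.16%), 1 for LPS in WT (11%), 2 for LPS in AhR-KO (16.1%) and 0 for the interaction (3.6%). At an unadjusted p under 0.05 there were 6 and 8 of 10 for genotype without and with LPS and 5 for the interaction. With an adjusted p of at most 0.05 these were 5, 6 and 4, all short of the fold. The shares of all genes passing by p alone were not computed, so these counts cannot be set against a background. DESeq2 was not run on the sums. The *Tlr3* sums were 60.7, 73.4 and 80.5 CPM in unstimulated WT, 52, 55.3 and 60.7 in unstimulated AhR-KO, 36.1, 42.6 and 48 in WT LPS and 29.2, 30.4 and 34.6 in AhR-KO LPS. Each group lay wholly below the one named before it. *Tlr3* was called for LPS in WT, at -0.76 (SE 0.07, adjusted p = 3.57e-10), and in AhR-KO, at -0.83 (SE 0.07, adjusted p = 3.80e-11). Its genotype effects, -0.36 (SE 0.07, adjusted p = 9.64e-05) without and -0.44 (SE 0.07, adjusted p = 1.84e-05) with LPS, were short of the fold.

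*Tlr8* sums had LPS effects of -0.56 (SE 0.06, adjusted p = 2.17e-09) in WT, short of the fold except without WT LPS replicate 3 or without both WT libraries numbered 6 (-0.59 in each), and -0.81 (SE 0.06, adjusted p = 4.41e-13) in AhR-KO, which was called. The *Tlr2* sum was higher in AhR-KO without LPS, at 179, 196 and 202 CPM against 141, 154 and 173, without overlap (0.32, SE 0.05, adjusted p = 2.33e-06). The *Tlr5* sum was lower, at 54.9, 57.9 and 61.1 against 64.7, 67 and 75 CPM, also without overlap (-0.24, SE 0.04, adjusted p = 3.02e-05). The *Tlr4* sum had LPS effects of 0.16 (SE 0.04, adjusted p = 3.92e-04) in WT and 0.29 (SE 0.04, adjusted p = 2.27e-08) in AhR-KO. The *Tlr1* sum had an interaction of -0.42 (SE 0.12, adjusted p = 0.00939), from LPS effects of 0.31 (SE 0.09, adjusted p = 0.00304) in WT and -0.11 (SE 0.09, adjusted p = 0.262) in AhR-KO.

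**Figure D5:**
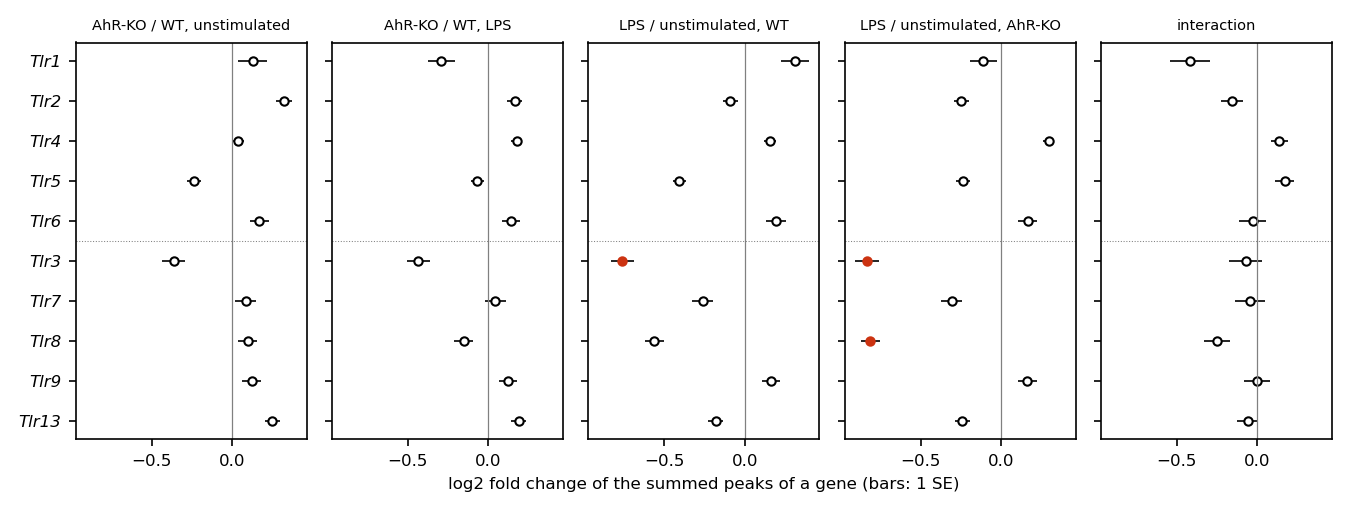
Log2 fold change of the summed peaks of each TLR gene in the 5 comparisons, with bars of 1 SE. *Tlr3* passes the thresholds for LPS in both genotypes and *Tlr8* for LPS in AhR-KO.

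The TSS peaks of 43 genes that serve TLR signalling, from co-receptors to adaptors, kinases and transcription factors, were read in the fit of all peaks, against the background of protein-coding TSS peaks given above. Without LPS, 1 was lower and 2 higher in AhR-KO (6.98% called, beside 6.22% of protein-coding TSS peaks). *Lbp*, whose product hands LPS to CD14, had medians of 6.05 and 3.83 CPM in WT and AhR-KO, with overlap (-0.59, SE 0.14, adjusted p = 6.89e-04). *Ly86*, which encodes MD-1, had 5.37 and 8.94 CPM (0.76, SE 0.13, adjusted p = 1.29e-05), and *Peli3*, which encodes an E3 ubiquitin ligase of the Pellino family, 11.2 and 17.1 (0.60, SE 0.08, adjusted p = 2.30e-07). AhR-KO libraries of both were above all WT libraries. *Lbp* and *Peli3* were close to the fold of 1.5. *Lbp* was under it in DESeq2 and with RLE size factors (-0.53 in each) and in 6 of the 24 fits that left out 1 library, and *Peli3* in 3 of these fits. Leaving out WT unstimulated replicate 4 put both under it (-0.57 and 0.58), so that 1 of the 43 was called.

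With LPS, 0 of the 43 were DARs for genotype in edgeR and 0 in DESeq2 (background 6.98% in edgeR). In edgeR, 21 had an unadjusted p under 0.05, and 14 an adjusted p of at most 0.05 but were short of the fold. For these counts by p alone, the share of all protein-coding TSS peaks was not computed. LPS lowered 2 and raised 0 in WT (4.65% called, beside 10.4% of protein-coding TSS peaks). In AhR-KO it lowered 5 and raised 1 (13.95% called, beside 15.9%). Both shares were below the background, and the differences were not tested. Without WT LPS replicate 3 the WT count was 4. *Cd36*, a scavenger receptor that assists TLR2, had LPS effects of -0.74 (SE 0.11, adjusted p = 5.42e-07) in WT and -0.74 (SE 0.11, adjusted p = 1.86e-07) in AhR-KO. For *Ticam2*, the adaptor that links TLR4 to TRIF, they were -0.72 (SE 0.07, adjusted p = 1.36e-11) in WT and -0.74 (SE 0.07, adjusted p = 2.70e-12) in AhR-KO. The other DARs were in AhR-KO: *Ly86* at -1.25 (SE 0.13, adjusted p = 1.24e-10), *Pik3ap1*, an adaptor of PI3-kinase, at -0.75 (SE 0.08, adjusted p = 8.18e-10), *Tab1*, a partner of the kinase TAK1, at -0.79 (SE 0.07, adjusted p = 8.63e-12), and *Irf7*, an interferon regulatory factor downstream of endosomal TLRs, at 0.75 (SE 0.07, adjusted p = 2.50e-12). The conditions did not overlap at these genes in the genotypes in which they were called. The interaction was a DAR at *Ly86* alone of the 43 (-0.74, SE 0.19, adjusted p = 0.00609), which is 2.33%, beside 3.6% of protein-coding TSS peaks.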

How the data were processed

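ATAC-seq libraries of 24 BMDM cultures (4 groups of 6, grouped by title) were analysed. The authors ran the nf-core atacseq pipeline on mm10, called broad peaks per library with MACS2, merged them, and deposited raw counts of fragments per consensus peak from featureCounts 2.0.1 (minimum overlap fraction 0.2, per the file headers). The deposited per-library peak lists give −log10 q-values, the lowest of each list between 1.00 and 1.03, and were used to say in how many libraries a peak was called. Starts were read as 0-based and printed 1-based. Other per-sample columns numbered 0.

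Peaks overlapping a gene body (GENCODE vM21) or 20 kb around it were given to the nearest TLR gene. The members and lists were chosen with earlier results of these data known. Counts of all peaks were filtered by filterByExpr, TMM-normalised (factors 0.976 to 1.04) and fitted with edgeR 4.0.16 (robust quasi-likelihood, R 4.3.3), 1 mean per group, with 5 contrasts: AhR-KO against WT in each condition, LPS against unstimulated in each genotype, and the interaction. DARs passed an adjusted p of 0.05 with a 1.5-fold change. Gene sums used the same model. CPM are TMM-scaled. Peaks named are each gene's TSS peak and highest peak in CPM and, per comparison, the 3 lower and 3 higher DARs with the smallest p. For the 43 pathway genes, up to 5 DARs per direction were named.

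Depth was 8.54 to 34.6 M counts per library, so that 1 CPM stands for about 8.54 to 34.6 counts. Of 60 replicate pairs, none agreed within sampling noise (lowest chi-square per peak 1.26). Which libraries share an animal is not given in the sources used here, so p-values measure the spread between these libraries. Alternatives were RLE size factors, DESeq2 1.42.0, no low-count filter, other folds, a 5 kb window, the replicate number as a block, the chromosome Y share as a covariate, and leaving out each library. Leaving out both WT libraries numbered 6, and all alternatives for the pathway list, were added after seeing the data. A named value counts as weaker or stronger when it leaves or enters the DAR thresholds.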

Additional observations from a re-analysis of the deposited data

Results flagged for a closer look

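In 7 of 176 groups of 6 libraries tested at named peaks and gene sums (3.98%, where chance gives about 5%), 1 library stood apart from the others by Dixon's criterion. These were the *Tlr4* peak 3.92 kb upstream in AhR-KO unstimulated replicate 4 (1.78 CPM, others 1.05 to 1.23), the *Tlr3* peak 4.47 kb upstream in AhR-KO unstimulated replicate 3 (28.2 CPM, others 24.0 to 25.5) and the *Tlr8* peak 12.7 kb upstream in WT unstimulated replicate 5 (10.0 CPM, others 11.4 to 12.2). The *Tlr9* peak 8.68 kb downstream stood apart in WT unstimulated replicate 4 (29.03 CPM, others 24.3 to 26.1) and in WT LPS replicate 2 (45.7 CPM, others 39.2 to 41.3). Among gene sums, it was *Tlr8* in WT unstimulated replicate 5 (117 CPM, others 106 to 109), the library with the lowest total count, and *Tlr13* in AhR-KO LPS replicate 5 (145 CPM, others 119 to 126).

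The LPS effect differed between genotypes, by the interaction term in edgeR and the fold of a DAR, at 9 peaks. It was lower in AhR-KO at the *Tlr3* peak 4.47 kb upstream (-1.11), at *Tlr1* over an untranslated exon (-0.89), in the *Tlr13* intron 2.04 kb from the TSS (-0.74) and 12.7 kb upstream of *Tlr8* (-0.62). It was higher in AhR-KO at *Tlr4* 115 kb (1.203), 107 kb (0.82) from the TSS and 3.92 kb upstream of it (0.66), in the *Tlr13* intron at 12.9 kb (0.88) and at *Tlr2* 23.3 kb from the TSS (0.88). Of these, the *Tlr4* peaks at 115 kb and 3.92 kb upstream and the *Tlr2* peak were called in LPS libraries alone.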

How the results depend on the processing

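Counts of TLR DARs moved with the definition of a DAR. For genotype without LPS, genotype with LPS, LPS in WT, LPS in AhR-KO and the interaction, in that order, they were 52, 51, 79, 87 and 18 with no fold threshold, and 3, 7, 25, 30 and 2 at a fold of at least 2. A window of 5 kb in place of 20 kb held 6, 10, 25 and 30 DARs for the first 4. Shares of all tested peaks with no fold threshold or at a fold of 2 were not computed, so those counts have no background. Leaving out each library in turn gave 12 to 15, 18 to 22, 47 to 51, 54 to 62 and 6 to 11 DARs. Gene sums called were then 0 for genotype in both conditions and for the interaction, 1 to 2 for LPS in WT and 2 in AhR-KO, and pathway genes 1 to 3, 0, 2 to 4, 6 and 1. Without both WT libraries numbered 6, 2 gene sums (*Tlr3* and *Tlr8*) and 4 pathway genes were called for LPS in WT. Among 6632 repeats of named values under the alternatives, 27 lost and 27 gained a call, and none that was called changed direction. The causes of these changes were not tested.

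The replicate numbers were not taken to pair libraries, since not every same-numbered pair correlated above 0.1, although 5 of 6 WT pairs did and both WT libraries numbered 6 had the lowest chromosome Y shares. The correlation of same-numbered libraries' deviations from their group means was 0.0486 to 0.343 between WT unstimulated and WT LPS, 0.00876 to 0.210 between the AhR-KO groups and -0.144 to 0.268 between genotypes, and the libraries correlated best with their own number in 4 of 6 WT and 3 of 6 AhR-KO cases. With the replicate block, the DAR counts were 15, 20, 48, 57 and 10, and 48, 57 and 11 with a replicate block within genotype for the last 3. The replicate block brought 2 named values past the thresholds, the LPS effect in AhR-KO 16.97 kb upstream of *Tlr5* (-0.73, adjusted p = 0.0397 in edgeR) and the interaction 2.35 kb upstream of *Tlr9* (1.15, adjusted p = 0.0416), and lost none. Few counts stand behind the *Tlr9* and *Tlr5* upstream peaks, whose group medians were at most 1.64 CPM, and how far depth rather than spread between libraries limits them was not tested.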
